A study of Mus musculus with 58 samples.

Results

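The genes of the Polycomb repressive complex 1 (PRC1) core and of its PCGF subunits were examined in chromatin-associated RNA of mouse cells. They were taken by name: Ring1 and Rnf2, Pcgf1, Pcgf2, Pcgf3, Pcgf5, Pcgf6 and Bmi1, Rybp and Yaf2, 10 of the 22556 genes of the count files. All 10 passed the filter on low counts and were among the 16227 genes tested. The data were 58 libraries in 28 groups, 26 groups of 2 and 2 groups of 3 libraries (SPOC_ES_d0 and SPOC_ES_d1).

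All groups derive from iXist-ChrX-Dom, a female mouse embryonic stem cell (ES) line of a 129S and Cast cross in which a TetOn promoter drives the endogenous Xist gene of the 129S X chromosome. The 129S allele is called Dom here. WT is that line without further change, and it has libraries of neural precursor (NPC) cultures alone. SPOC carries a mutation in the SPOC domain of Spen, with clones C11, D9 and H1 in ES cells and D9 and H1 in NPC cultures. PCGF35 carries the FKBP12 degron on PCGF3 and PCGF5 and is a single line, so its replicates are cultures. PCGF35_SPOC adds the SPOC mutation to that line, in clones F10 and F6. DelPID lacks the B and C repeats of Xist, which recruit Polycomb, and has NPC libraries alone. DelPID_SPOC adds the SPOC mutation, in clones A8 and G3. The paper describes its clone G of this line, taken here as G3, as tetraploid. For DelPID_SPOC the sample names alone give the mutation. Doxycycline at 1 ug/mL switched Xist on for 1 day in ES cells (day 1) or for 3 or 6 days during NPC differentiation, and day 0 is uninduced ES cells. In the dTAG groups of the PCGF35 and PCGF35_SPOC lines, dTAG-13 at a labelled 100 uM was added to degrade the tagged proteins, 12 hours before doxycycline in the induced groups, while the dTAG groups of day 0 received no doxycycline, and the untreated groups of these lines are called ctrl. ES cells were grown on mitotically inactive fibroblast feeders that were removed by pre-plating.

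PRC1 complexes place ubiquitin on histone H2A. RING1 (gene Ring1) and RNF2, also called RING1B, are the alternative ubiquitin ligases of the complex, and each pairs with 1 PCGF protein that sets the type of complex. PCGF2 (MEL18) and BMI1 form the canonical complexes with CBX and PHC proteins, which bind the histone mark of Polycomb repressive complex 2. PCGF1, PCGF3, PCGF5 and PCGF6 form variant complexes with RYBP or YAF2, and those of PCGF3 and PCGF5 are brought to the Xist-coated chromosome. PCGF1 works with KDM2B and BCOR, PCGF6 with E2F6, MGA and L3MBTL2, and PCGF5 and PCGF3 with AUTS2 and casein kinase 2.

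The largest rise and the largest fall between ES day 0 and NPC day 6 belonged to Ring1 and Bmi1, so the DNA just before their start sites is shown. The sequences are RefSeq promoters on GRCm38.p6, the build also called mm10, 250 bases up to the start site, read in the direction of transcription. The Ring1 stretch is chr17:34024681-34024930 on the minus strand and the Bmi1 stretch is chr2:18676768-18677017 on the plus strand. Capitals mark matches to GGGCGG (the GC box) or CACGTG (an E box) on either strand.
Ring1: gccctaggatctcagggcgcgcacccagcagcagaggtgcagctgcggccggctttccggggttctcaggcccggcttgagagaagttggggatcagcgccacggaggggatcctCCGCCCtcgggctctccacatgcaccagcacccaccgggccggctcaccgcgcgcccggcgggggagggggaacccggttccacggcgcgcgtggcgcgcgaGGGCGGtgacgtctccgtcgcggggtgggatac
Bmi1: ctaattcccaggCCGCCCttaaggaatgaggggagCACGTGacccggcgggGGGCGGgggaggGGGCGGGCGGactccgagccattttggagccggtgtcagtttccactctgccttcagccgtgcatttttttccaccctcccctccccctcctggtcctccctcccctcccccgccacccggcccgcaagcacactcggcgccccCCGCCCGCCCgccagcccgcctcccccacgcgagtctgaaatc
Ring1 had 2 matches to GGGCGG, at -135 and -33 from the start. Bmi1 had 6, at -238, -199, -187, -183, -43 and -39, of which 4 overlap another, and 1 match to CACGTG at -215. Neither held CCAAT or TATAAA. Among 32851 promoter windows of 250 bases, 32.7% held GGGCGG, 6.02% CACGTG, 33.8% CCAAT and 12.4% TATAAA. Ring1 had 30 CpG dinucleotides and Bmi1 21, against a median of 6 over all windows. Promoter entries were found for 7 of the 10 members. Besides Ring1 and Bmi1 these were Rnf2 (20 CpG), Pcgf3 (16), Pcgf6 (14), Pcgf2 (5) and Pcgf5, and Pcgf1, Rybp and Yaf2 were the others. Pcgf5 has 3 RefSeq starts, and the gene model used for counting begins at the one at 36379067, which has 4 CpG. It lies 30737 bases after the RefSeq start at 36348329 (23 CpG), and the third start at 36409748 (28 CpG) lies inside the model, so RNA of the first stretch of the longest form was not counted.

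The count models of the members do not overlap another gene on either strand. On mm10 they lie on chromosomes 17 (Ring1, 34020791 to 34024680), 1 (Rnf2, 151469405 to 151500823), 11 (Pcgf2, 97688822 to 97700497), 2 (Bmi1, 18677017 to 18686629), 5 (Pcgf3, 108461331 to 108503099), 6 (Pcgf1, 83078389 to 83080855, and Rybp, 100228564 to 100287358), 19 (Pcgf5, 36379066 to 36456204, and Pcgf6, 47033618 to 47050845) and 15 (Yaf2, 93283832 to 93336935), and none is X-linked. Counts are fragments over exons and introns together. Ring1 and Pcgf1, the shortest genes, rested on few fragments, 15 to 126 per library for Ring1 and 4 to 110 for Pcgf1. Rybp had 669 to 13047.

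Libraries held a median of 15.9 M fragments (M for mega), the deepest 30.0 M, and the shallowest, DelPID_NPC_d6 replicate 1, 2.29 M against at least 6.37 M in the others. Without the shallowest library the members called in NPC day 6 against day 3 and in the SPOC comparison stayed 3 and 1. In PCGF35_dTAG_ES_d1 replicate 1 a part of the Xist fragments came from the Cast allele, unlike the other induced libraries. Leaving that library out moved no member by more than 0.12 on the log2 scale in the dTAG and Xist comparisons, with 0 members called as before. Of 8 pluripotency markers 7 were lower on NPC day 6 than on ES day 0, and 2 of 5 neural markers tested were higher (Sox1, Zic1 and Hes5 were too low to test). Endoderm and mesoderm markers were higher too on average, 4 of 5 tested. Their median log2 fold change was 1.51 against 1.25 for the neural ones. Over all genes 29.4% were called higher and 29.4% lower. Of the cultures with both stages, the summed endoderm and mesoderm markers rose in PCGF35 and clone F10 alone. In SPOC they fell from 15.8, 19.0 and 23.4 CPM to 10.9 and 12.9 CPM. In DelPID_SPOC they fell from 13.2 and 15.2 CPM to 5.33 and 8.38 CPM, and in clone F6 they did not rise. The summed pluripotency markers were 1305 to 2244 CPM on ES day 0 and 366 to 1357 CPM on NPC day 6, so the NPC cultures kept pluripotency RNA to different degrees. CPM is counts scaled to a mega of counts per library. In bulk RNA of this kind, fewer cells of a type and less RNA per cell cannot be told apart.

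Rybp had the most chromatin-associated RNA per length and Pcgf5 the least. In CPM per kb of gene model, averaged over the 28 groups, the levels were 6.79 ± 0.90 for Rybp, 3.53 ± 0.62 for Pcgf6, 2.94 ± 0.15 for Rnf2, 2.23 ± 0.37 for Pcgf2 and 2.08 ± 0.20 for Pcgf3 (SD over groups). The lower members were Pcgf1 at 1.42 ± 0.26, Bmi1 at 1.15 ± 0.42, Yaf2 at 1.01 ± 0.22, Ring1 at 0.87 ± 0.33 and Pcgf5 at 0.64 ± 0.16 CPM per kb. Neighbours in this order held it in all 28 groups for Rybp over Pcgf6, Rnf2 over Pcgf2 and Pcgf3 over Pcgf1. The other neighbours changed places between groups, with Bmi1 above Yaf2 in 15 of 28 and Pcgf6 above Rnf2 in 22 of 28. Of the alternative ligases, Rnf2 had more RNA per length than Ring1 in all libraries, from 2.51 to 3.37 CPM per kb against 0.35 to 2.13. Rnf2 was the steadiest member, its highest group mean 1.27 times its lowest, and Ring1 varied the most, by 4.02 times.

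**Figure D1:**
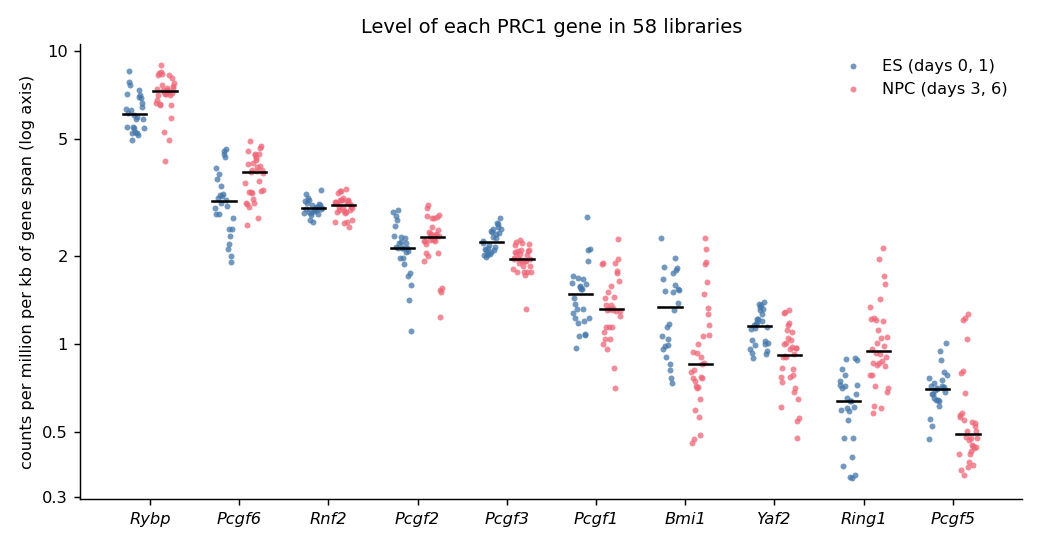
Level of each member in CPM per kb of gene model (log axis) in the 58 libraries, with ES and NPC libraries as separate points and the median as a bar. Rybp lies above all others, Rnf2 forms the tightest column, and Ring1 and Bmi1 spread the widest.

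The comparison of dTAG and ctrl cultures asks whether the RNA of the complex answers the loss of PCGF3 and PCGF5. No member was called in either degron line or in both together, by edgeR's quasi-likelihood test with Benjamini-Hochberg adjustment at 0.05. Over all genes 0.0247% were called for both lines together (4 genes), 0% in PCGF35 and 0% in PCGF35_SPOC. At an unadjusted p under 0.05 the comparison of both lines held 889 genes and 0 members, and DESeq2 also called 0 members. The tag acts on protein, which was not measured here, so the RNA of the tagged genes does not show whether degradation took place.

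For the tagged genes themselves, Pcgf3 had 73.8, 87.2 and 93.9 CPM (lowest, median, highest of 8 libraries) in PCGF35 ctrl and 78.7, 83.4 and 88.5 CPM with dTAG. In this line the dTAG values of Pcgf3 lay inside the ctrl range. In PCGF35_SPOC Pcgf3 had 77.4 to 101 CPM in ctrl and 73.6 to 103 CPM with dTAG, a slightly wider range. Pcgf5 had 28.6, 50.2 and 92.8 CPM in PCGF35 ctrl and 27.6, 52.0 and 94.3 CPM with dTAG, a like range. In PCGF35_SPOC Pcgf5 had 29.2 to 80.4 CPM in ctrl and 32.6 to 97.6 CPM with dTAG. Over both lines the log2 fold change of Pcgf3 was -0.03 (95% interval -0.12 to 0.05) and that of Pcgf5 was 0.04 (-0.22 to 0.29). The intervals leave a change of Pcgf3 beyond 1.09-fold and of Pcgf5 beyond 1.22-fold in either direction outside.

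Rybp, shared by the variant complexes, had the highest value of the members for both lines, 0.13 (-0.02 to 0.28, adjusted p 0.958). In PCGF35 alone it was 0.24 (0.03 to 0.46, unadjusted p 0.0252, adjusted p 0.993), and in PCGF35_SPOC 0.02 (-0.20 to 0.23). Its largest value for a line and day was 0.48 in PCGF35 ES cells on day 0, where dTAG cultures averaged 481 and ctrl cultures 349 CPM. Rybp was higher with dTAG in 6 of the 8 pairs of line and day, and 1 library, PCGF35_dTAG_ES_d1 replicate 1, brings the PCGF35 value to 0.19 when left out. The other variant subunit genes, Pcgf1 (-0.04, interval -0.27 to 0.19), Pcgf6 (0.01, -0.15 to 0.17) and Yaf2 (0.03, -0.09 to 0.16), were close to 0 over both lines. So were the ligases, Rnf2 at 0.05 (-0.02 to 0.13) and Ring1 at -0.10 (-0.36 to 0.17), and the canonical subunits, Pcgf2 at -0.03 (-0.15 to 0.10) and Bmi1 at 0.00 (-0.27 to 0.28). Ring1, with the fewest fragments together with Pcgf1, had the widest reach, 1.29-fold in either direction. The interval for Rnf2 reached 1.09-fold. With the clone or replicate number of each line as a block, the genes called for both lines rose to 257, and members called remained 0.

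**Figure D2:**
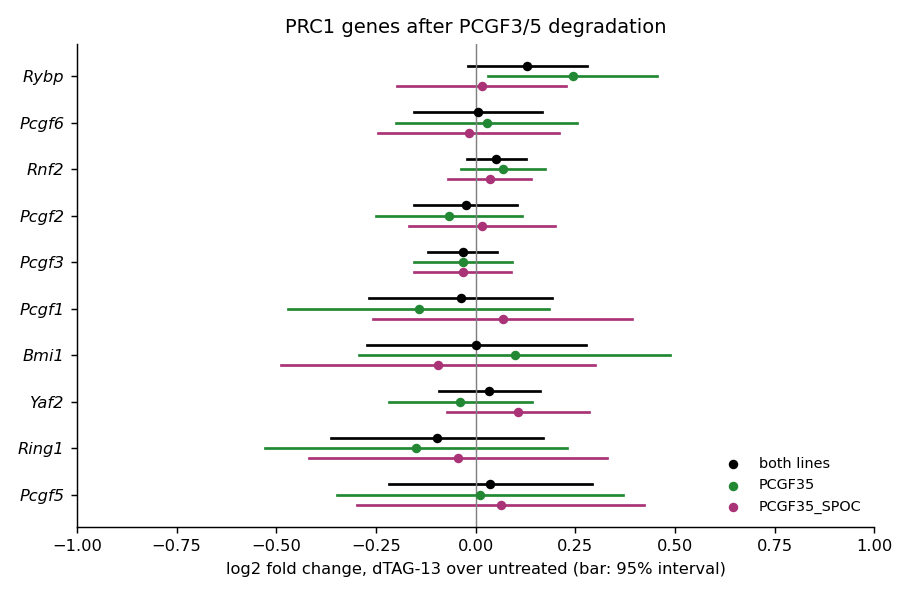
Log2 fold change of dTAG over ctrl for each member, for both degron lines together and for PCGF35 and PCGF35_SPOC apart, with 95% intervals from edgeR's quasi-likelihood fit. Every point lies near 0, and the interval of Rybp in PCGF35 alone stays above 0 before adjustment.

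The change of dTAG's effect between ES day 0 and NPC day 6 was tested as a difference of differences. By edgeR and by DESeq2 0 members were called. In edgeR's quasi-likelihood test 0% of genes were called, and at an unadjusted p under 0.05 there were 0 members and 388 genes. The values ran from -0.25 for Pcgf2 to 0.62 for Ring1 (interval -0.13 to 1.37), so this comparison was less precise than the one above. For 1 day of Xist induction in ES cells, 0 members were called by edgeR and by DESeq2, against 0.0924% of all genes by edgeR. At an unadjusted p under 0.05 edgeR gave 0 members, against 4.05% of all genes. Member values there lay between -0.07 for Bmi1 and 0.15 for Ring1.

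Differentiation moved the members more. The NPC ranges below cover all 16 libraries of a day, and the changes against day 0 the 12 of 6 arms that have both stages, an arm being a line with or without dTAG: PCGF35_ctrl, PCGF35_dTAG, PCGF35_SPOC_ctrl, PCGF35_SPOC_dTAG, DelPID_SPOC and SPOC. The dTAG and ctrl arms of a line share its clones or were grown in parallel, so the arms are not all independent. Xist was on in the NPC cultures and off on ES day 0, so induction and differentiation cannot be told apart in this comparison. By NPC day 6, Ring1 was higher and Bmi1, Yaf2 and Pcgf3 were lower, 4 of 10 members, against 58.9% of all genes called (29.4% higher and 29.4% lower). The median log2 fold change over the members was 0.08 and over all tested genes 0.00. On NPC day 3, 6 of 10 were called, with Ring1, Pcgf6 and Rybp higher and Pcgf5, Bmi1 and Yaf2 lower, against 55.6% of genes (26.4% higher and 29.2% lower). From day 3 to day 6, over 8 arms that include WT and DelPID, Ring1 and Pcgf5 were higher and Pcgf6 lower, against 21.3% of genes (10.6% higher and 10.8% lower). The summed endoderm and mesoderm markers rose between ES day 0 and NPC day 6 in PCGF35 and clone F10 and not in the other cultures of these arms. Their part in these member changes was not tested.

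**Figure D3:**
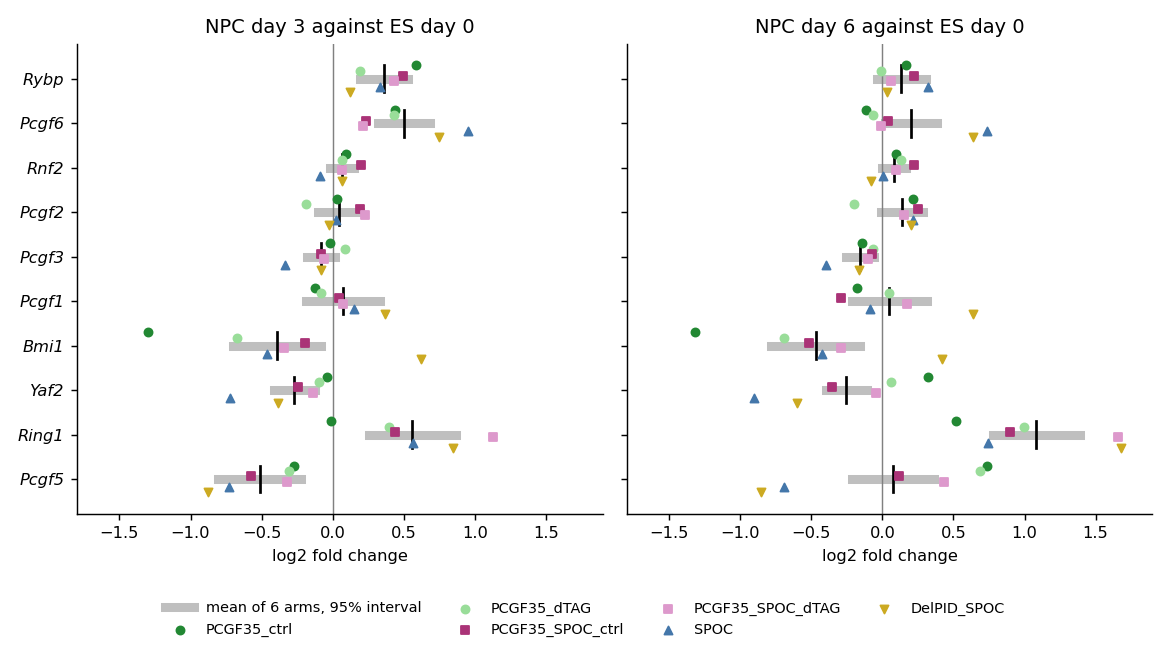
Log2 fold change of NPC day 3 and NPC day 6 over ES day 0 for each member, as 1 point for each of the 6 arms and the mean over arms with its 95% interval. Ring1 lies above 0 in all 6 arms on day 6, and the points of Bmi1 and Pcgf5 fall on both sides of 0.

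Ring1, the minor ligase by RNA here, rose at both steps in the mean over arms. It had 1.37, 2.36 and 3.06 CPM (lowest, median, highest) over 13 libraries of ES day 0, 2.25, 3.29 and 5.21 CPM over 16 of NPC day 3 and 2.75, 4.68 and 8.29 CPM over 16 of NPC day 6. In the SPOC arm 1 library on day 6 (2.75 CPM) fell below the highest on day 0 (2.82 CPM). The log2 fold change was 1.08 on day 6 (SE 0.15, adjusted p 2.48e-07 by edgeR), a 2.12-fold rise, 0.56 on day 3 (SE 0.15, adjusted p 0.00201) and 0.53 from day 3 to day 6 (SE 0.13, adjusted p 0.00404). Single arms ran from 0.52 in PCGF35_ctrl to 1.68 in DelPID_SPOC on day 6. On day 3 they ran from -0.01 in PCGF35_ctrl to 1.13 in PCGF35_SPOC_dTAG. Rnf2, the main ligase, had 81.7, 91.8 and 105 CPM on ES day 0 and 78.8, 94.6 and 105 CPM on NPC day 6. These ranges coincide, and its log2 fold change of 0.08 had an interval of -0.01 to 0.16 (adjusted p 0.102).

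Of the canonical subunits, Bmi1 had 7.37, 12.5 and 22.1 CPM on ES day 0, 4.40, 8.44 and 22.2 CPM on NPC day 3 and 5.41, 7.87 and 20.4 CPM on NPC day 6. The stages overlapped widely, since the DelPID_SPOC libraries held 15.6 and 20.4 CPM on day 6 and the other arms 5.41 to 12.1. The mean log2 fold change over arms was -0.47 on day 6 (SE 0.15, adjusted p 0.00966 by edgeR) and -0.39 on day 3 (SE 0.15, adjusted p 0.0302). On day 6 it ran from -1.32 in PCGF35_ctrl to 0.42 in DelPID_SPOC, and 5 of 6 arms were below 0. The day 3 call of Bmi1 was lost in 8 of 25 fits that left out 1 library, with an adjusted p of up to 0.101. Those were the fits without replicate 1 of a degron arm on ES day 0 or NPC day 3 (all but PCGF35_dTAG_NPC_d3) and without DelPID_SPOC_NPC_d3 replicate 2. With untreated arms alone that adjusted p was 0.134. Pcgf2 changed little, from 12.9, 25.9 and 33.0 CPM on ES day 0 to 17.9, 27.6 and 34.8 CPM on NPC day 6, and differed by 0.14 on the log2 scale (adjusted p 0.0996). With the clone or replicate as a block it was 0.16 (adjusted p 0.0352).

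Among the subunits of the variant complexes, Pcgf6 rose and Pcgf5 fell by day 3, and the mean changes over arms shrank by day 6, unequally between arms. Pcgf6 had 34.5, 53.3 and 78.4 CPM on ES day 0, 52.3, 70.4 and 84.8 CPM on NPC day 3 and 43.9, 56.9 and 80.7 CPM on NPC day 6. It rose by 0.50 on the log2 scale to day 3 (SE 0.09, adjusted p 1.68e-05 by edgeR) and fell by 0.29 from day 3 to day 6 (adjusted p 0.00858). Against day 0, day 6 stood at 0.20 (adjusted p 0.052), and at 0.21 (adjusted p 0.00471) with the replicate block. Pcgf5 had 36.7, 54.5 and 77.6 CPM on ES day 0 and 27.6, 35.4 and 44.9 CPM on NPC day 3, a difference of -0.51 on the log2 scale (SE 0.14, adjusted p 0.00273). By arm this difference ran from -0.88 in DelPID_SPOC to -0.27 in PCGF35_ctrl. On NPC day 6 Pcgf5 spread from 29.8 to 97.6 CPM (median 42.7), and it rose by 0.52 from day 3 (SE 0.13, adjusted p 0.00376). With untreated arms alone the changes from day 3 to day 6 were 0.40 for Pcgf5 (adjusted p 0.0745) and -0.27 for Pcgf6 (adjusted p 0.0546), and Ring1 was then the 1 member called. On day 6 Pcgf5 was still low against day 0 in the untagged arms, at -0.86 in DelPID_SPOC and -0.69 in SPOC (adjusted p 0.0863 and 0.103 by edgeR). The mean change was above 0 in the 4 degron arms, but in both PCGF35_SPOC arms the clones went opposite ways. Their day 0 libraries held 50.3 and 54.6 CPM in ctrl and 47.5 and 49.6 CPM with dTAG. On day 6 F10 held 80.4 CPM in ctrl and 97.6 CPM with dTAG, and F6 30.5 and 32.6 CPM.

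Pcgf3, the other tagged gene, fell slightly, from 82.7, 93.9 and 112 CPM on ES day 0 to 55.0, 80.8 and 94.7 CPM on NPC day 6. Its log2 fold change was -0.16 (SE 0.05, adjusted p 0.00525 by edgeR). The lowest value, 55.0 CPM, came from the shallowest library, of DelPID, which is not among the 6 arms. Pcgf1, of the KDM2B complex, had 2.64, 3.25 and 5.17 CPM on ES day 0 and 1.75, 3.29 and 4.80 CPM on NPC day 6. That difference of 0.05 had an interval of -0.21 to 0.31, at 4 to 110 fragments per library.

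Rybp and Yaf2, alternative partners in the variant complexes, went different ways. Rybp had 292, 355 and 502 CPM on ES day 0, 386, 435 and 529 CPM on NPC day 3 and 247, 419 and 491 CPM on NPC day 6. It rose by 0.36 to day 3 (SE 0.08, adjusted p 0.000466 by edgeR), by arm from 0.12 in DelPID_SPOC to 0.59 in PCGF35_ctrl. On day 6 it stood at 0.13 against day 0 (adjusted p 0.171), and the step from day 3 was -0.19 (adjusted p 0.0658), or -0.20 with the replicate block (adjusted p 0.0209). Yaf2 had 47.6, 61.9 and 72.7 CPM on ES day 0, 28.9, 48.7 and 62.7 CPM on NPC day 3 and 25.3, 47.7 and 69.2 CPM on NPC day 6. Its log2 fold change was -0.27 on day 3 (SE 0.07, adjusted p 0.00159) and -0.25 on day 6 (SE 0.07, adjusted p 0.00262), while on day 6 the arms ranged from 0.32 in PCGF35_ctrl to -0.91 in SPOC.

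**Figure D4:**
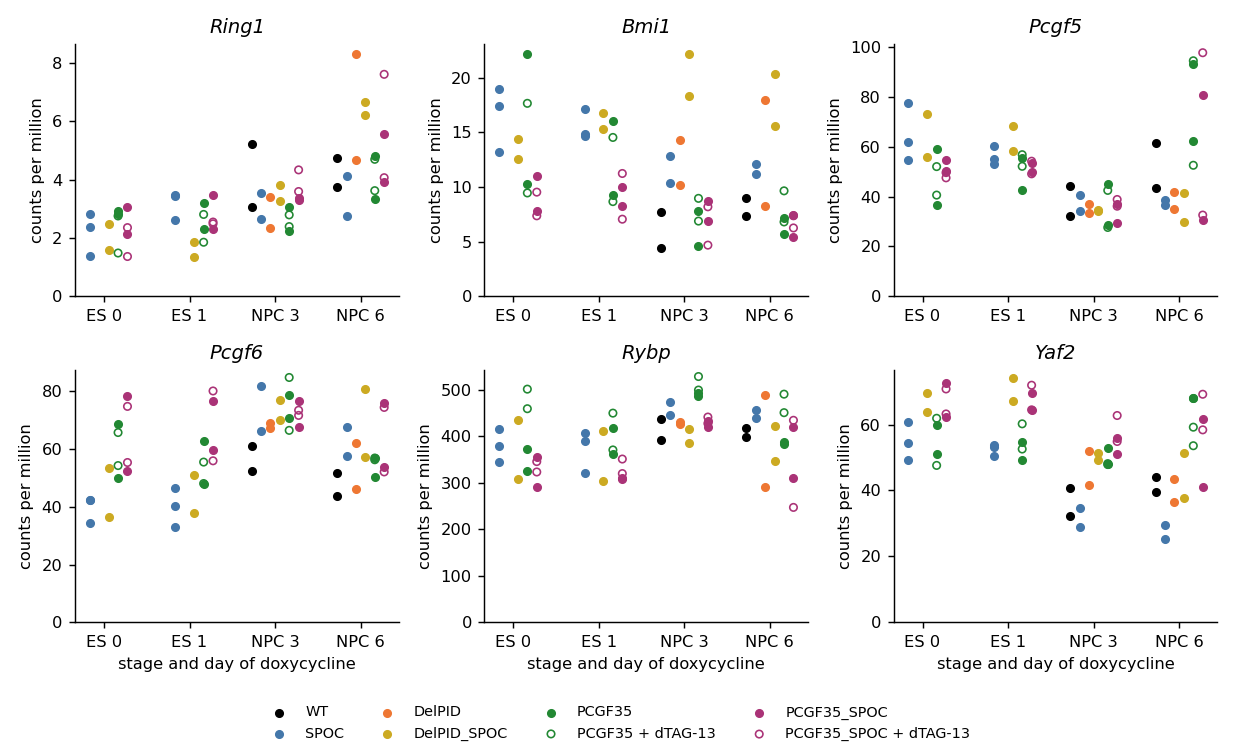
CPM by library for Ring1, Bmi1, Pcgf5, Pcgf6, Rybp and Yaf2 on ES days 0 and 1 and NPC days 3 and 6, with the lines in separate colours. On average Ring1 is higher on NPC day 6 than on ES day 0 in every line that has both stages. Pcgf5 spreads out on NPC day 6, and Yaf2 drops in the SPOC line.

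Single arms gave few calls, at 2 or 3 libraries per group. Ring1 was called on day 6 against day 0 in PCGF35_SPOC_dTAG (1.66, adjusted p 0.00841, background 5.37%) and DelPID_SPOC (1.68, adjusted p 0.00237, background 19.2%). Bmi1 was called in PCGF35_ctrl (-1.32, adjusted p 0.0116, background 29.5%). Pcgf6 and Yaf2 were called in both arms without the degron, Pcgf6 at 0.63 in DelPID_SPOC and 0.74 in SPOC and Yaf2 at -0.60 and -0.91, and Pcgf3 in SPOC at -0.40 (background 34.1% in SPOC). No member was called in PCGF35_dTAG (background 11.4%) or PCGF35_SPOC_ctrl (background 7.37%). A call in 1 arm and not another does not show that the arms differ, so the difference was tested as well.

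That test compared day 6 against day 0 in the untreated degron arms (PCGF35_ctrl and PCGF35_SPOC_ctrl) with the same in the arms without a tag (SPOC and DelPID_SPOC), and was added after the arms had been seen. Both arms without a tag carry the SPOC mutation and PCGF35_ctrl does not, so tag and mutation are mixed in it. Yaf2 was called, at a difference of 0.73 (SE 0.17, adjusted p 0.0274 by edgeR), 1 of 10 members against 2.52% of genes. In SPOC, Yaf2 fell from 54.3, 49.1 and 60.6 CPM on day 0 to 25.3 and 29.6 CPM on day 6. DelPID_SPOC went from 63.8 and 69.7 CPM to 37.7 and 51.4 CPM. PCGF35_ctrl held 51.1 and 59.9 CPM on day 0 and 67.9 and 68.1 CPM on day 6, and PCGF35_SPOC_ctrl 62.1 and 72.7 CPM and then 61.6 and 41.0 CPM. The day 6 values were below day 0 in both arms without the tag, above it in PCGF35_ctrl, and lower in both clones of PCGF35_SPOC. Leaving out 1 library lost the Yaf2 call in 7 of 17 fits (0.58 to 0.86, adjusted p up to 0.21), namely those without PCGF35_ctrl_ES_d0 replicate 1, PCGF35_ctrl_NPC_d6 replicate 2, PCGF35_SPOC_ctrl_NPC_d6 replicate 1, PCGF35_SPOC_ctrl_ES_d0 replicate 2, DelPID_SPOC_NPC_d6 replicate 1, DelPID_SPOC_ES_d0 replicate 2 or SPOC_NPC_d6 replicate 1. Between PCGF35_SPOC and SPOC alone, the pair that differs by the tag, it was 0.55 (adjusted p 0.377).

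In the same test Pcgf5 differed by 1.20 (SE 0.35, adjusted p 0.0514), Pcgf6 by -0.73 (adjusted p 0.0585) and Bmi1 by -0.92 (adjusted p 0.143). With the replicate block Pcgf5 (1.18, adjusted p 0.00263) and Pcgf6 (-0.74, adjusted p 0.00169) were called as well, 3 of 10 members against 18.7% of genes in that fit. On day 3 the same difference had 0 members called by edgeR and by DESeq2, against 0.037% of genes. At an unadjusted p under 0.05 it had 3 members, against 13% of genes, and with the replicate block 1 member was called, Pcgf6 (-0.53, adjusted p 0.0316), against 7.08% of genes.

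Pcgf5 on NPC day 6 differed within lines as much as between them. The PCGF35_SPOC clone F10 had 80.4 CPM in ctrl and 97.6 CPM with dTAG, and clone F6 had 30.5 and 32.6 CPM. In PCGF35, replicate 2 had 92.8 and 94.3 CPM and replicate 1 had 62.3 and 52.5 CPM. The untagged libraries had 29.8 to 61.6 CPM, so clone F6 sat with them. Markers of endoderm and mesoderm (Gata4, Gata6, Sox17, Foxa2, T and Mixl1) were low in F6 too. Across all libraries they did not follow the order of Pcgf5. Their sum was 45.6 to 173 CPM in the 6 degron libraries other than F6 and 9.42 and 9.63 CPM in F6. The 8 untagged libraries had 5.33 to 35.3 CPM, and WT replicate 2 was highest of them in both the sum and Pcgf5. From ctrl to dTAG in F10, Pcgf5 rose while this sum fell from 61.9 to 45.6 CPM. Gata4 had a median of 27.1 CPM in the 8 degron libraries and 8.81 CPM in the 8 others, Gata6 17.4 and 1.93 CPM and T 7.78 and 1.01 CPM, while Foxa2 and Mixl1 were at 0 in some libraries of both kinds. Feeder markers summed to 140 and 79.8 CPM in F10, 6.03 to 50.3 CPM in the other degron libraries and 1.51 to 31.8 CPM in the untagged ones. Pluripotency markers summed to 366 to 662 CPM in the 6 degron libraries other than F6 and to 1143 and 1170 CPM in F6. X-linked genes held 3.89% (ctrl) and 4.16% (dTAG) of the counts in F10 on that day and 4.73% and 5.41% in F6. For 1 PCGF35_SPOC clone, which by its captions is not F6, the paper proposes selection in NPC cultures for cells that lost the Cast X. The part of these cell types and of X loss in the values of Pcgf5 was not tested.

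**Figure D5:**
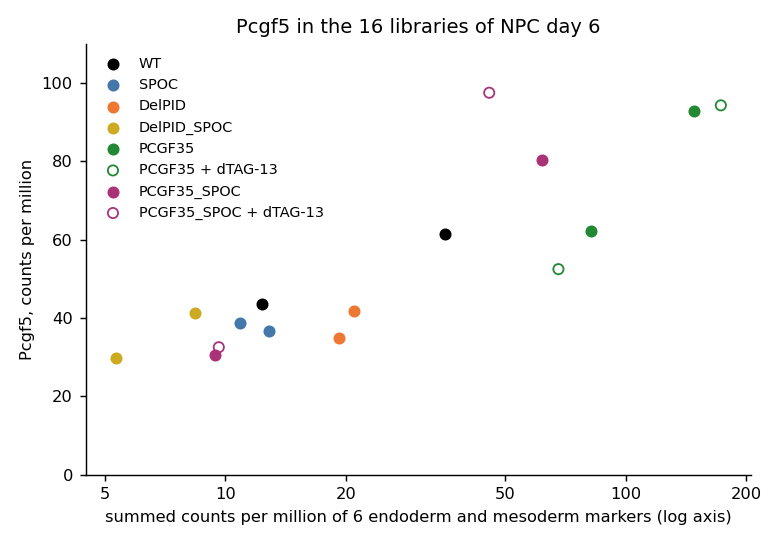
Pcgf5 in CPM against the summed CPM of 6 endoderm and mesoderm markers in the 16 NPC day 6 libraries, by line. The libraries of clone F6 lie at the low end of both axes, away from the other degron libraries.

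Lines were compared directly, degron (ctrl) against untagged, over WT and SPOC at matched stages. Yaf2, Pcgf2 and Pcgf6 were higher and Bmi1 and Pcgf1 lower in the degron lines, 5 of 10 members, against 28.7% of all genes (15.3% higher and 13.4% lower). The median over the members was -0.06. Tagged and untagged lines are separately derived, so the tag and the history of a line cannot be told apart. The tagged genes, Pcgf3 at -0.07 (interval -0.17 to 0.03) and Pcgf5 at 0.02 (-0.26 to 0.31), were not called. Yaf2 differed by 0.52 (SE 0.07, adjusted p 8.83e-07 by edgeR), with group means averaging 59.6 CPM in the degron lines and 40.8 CPM in the untagged ones. The value was 0.57 for pairs with WT and 0.50 for pairs with SPOC. DelPID_SPOC, which has no tag, exceeded SPOC in Yaf2 by 0.53 (adjusted p 1.19e-05 by edgeR). In NPC pairs with WT, DelPID, also without a tag, stood at 0.20 and SPOC at -0.35. Over all 6 pairs Bmi1 was 7.56 against 11.6 CPM, a difference of -0.60 (SE 0.15, adjusted p 0.00364), which came mostly from the pairs of PCGF35_SPOC with SPOC. In those it was -0.83 (adjusted p 0.00124), and in the NPC pairs of PCGF35 with WT -0.16 (6.33 against 7.13 CPM, adjusted p 0.817). SPOC exceeded WT in Bmi1 by 0.78 (adjusted p 0.127) and DelPID exceeded WT by 0.94 (adjusted p 0.0314). Pcgf6 was 66.4 against 53.4 CPM, at 0.29 (adjusted p 0.0126). Pcgf1 was 3.25 against 4.13 CPM, at -0.39 (adjusted p 0.0216), and lost its call in 3 of 26 fits, those without WT_NPC_d3, WT_NPC_d6 or SPOC_NPC_d3 replicate 1 (adjusted p up to 0.0725). Rybp stood at -0.18 (adjusted p 0.107), or at -0.20 with the replicate block (adjusted p 0.0385). Between these lines 6 of 8 pluripotency markers were lower in the degron lines, and 4 of 5 endoderm and mesoderm markers and 3 of 5 feeder markers tested were higher. Their part in the members' differences was not tested.

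Pcgf2 differed between the lines together with the rest of its chromosome. It had 21.9 to 34.8 CPM in the 32 libraries of the degron lines, 22.5 to 26.2 CPM in WT and 12.9 to 24.3 CPM in SPOC. SPOC was lowest, and DelPID (27.2 to 31.6 CPM) and DelPID_SPOC (23.9 to 32.1 CPM) matched the degron lines. For degron against untagged its log2 fold change was 0.43 (SE 0.07, adjusted p 2.46e-05 by edgeR), and the median over the 1296 tested genes of chromosome 11 was 0.42, against 0.01 over all genes. For DelPID_SPOC against SPOC, Pcgf2 stood at 0.59 (adjusted p 3.23e-06) and the chromosome 11 median at 0.43. For DelPID against WT they were 0.27 (adjusted p 0.212) and 0.20. The SPOC line against WT gave -0.48 for Pcgf2 and -0.18 for the chromosome. For the other members called between degron and untagged lines the chromosome medians were near 0, at 0.01 for chromosome 2 (Bmi1), -0.03 for chromosome 19 (Pcgf6) and -0.07 for chromosome 6 (Pcgf1).

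The alleles of Pcgf2 showed the same division. The Dom share of its allelic fragments was 67.1% in PCGF35 and 68.6% in PCGF35_SPOC, 55.6% in WT, 48.2% in SPOC, 34.6% in DelPID and 31.4% in DelPID_SPOC. Single libraries ran from 59.3% to 77.1% in the degron lines, 38.9% to 58.5% in WT and SPOC and 25.2% to 37.9% in the lines with the Xist deletion, counting libraries with at least 20 allelic fragments, and these ranges did not meet. Over 811 genes of chromosome 11 the median Dom share was 68.8%, 68.5%, 54.3%, 49.7%, 36.6% and 35.3% in these lines in the same order, and over 8672 genes of other autosomes it was 51.4% to 52.8%. In a test of the Dom to Cast ratio over 9483 autosomal genes, Pcgf2 in degron against untagged lines was the 1 of 8 members called (log2 ratio 1.04, SE 0.10, adjusted p 7.38e-11), against 14.9% of genes. What sets the chromosome 11 difference was not tested.

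Over all libraries the Dom share was 56.0% for Rnf2, 58.9% for Bmi1, 52.5% for Pcgf5, 51.6% for Pcgf3, 50.1% for Rybp, 49.6% for Yaf2 and 48.1% for Pcgf6. Ring1 and Pcgf1, at medians of 16 and 10 allelic fragments per library, were too shallow for the test. Ring1 was 73.9% Dom over all libraries together, with a 95% Wilson interval of 71.2% to 76.5% that covers counting error alone. Between ES day 0 and NPC day 6, Pcgf6 was the 1 of 8 members called (log2 ratio 0.16, SE 0.05, adjusted p 0.0303), against 16.1% of genes. With dTAG 0 of 8 members were called and 0% of genes, the lowest unadjusted p by edgeR being 0.0295 (Yaf2, -0.12). With the SPOC mutation 0 of 8 were called against 1.24% of genes, the lowest being 0.0376 (Pcgf2, -0.20). How many of all genes lay under such unadjusted values was not counted.

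The SPOC mutation was compared over the line pairs WT with SPOC, PCGF35 with PCGF35_SPOC and DelPID with DelPID_SPOC at matched stages. Pcgf2 was lower, at -0.26 (SE 0.06, adjusted p 0.0121 by edgeR), 1 of 10 members against 5.24% of genes. By pair it was -0.48 for WT, -0.24 for PCGF35 and -0.08 for DelPID. The chromosome 11 medians of these pairs were -0.18, 0.02 and 0.06. Lines with the mutation are separately derived clones, so the mutation and the history of a clone cannot be told apart. With the replicate block Rnf2 (-0.10, adjusted p 0.041) and Pcgf6 (0.22, adjusted p 0.00644) were called too, from -0.09 (adjusted p 0.144) and 0.22 (adjusted p 0.0978) without it, making 3 of 10 members against 16.3% of genes in that fit.

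The genes whose proteins join the members in their complexes were described by list. In the dTAG comparison of both lines, 0 of 9 canonical partners, 0 of 5 of PRC1.1 (PCGF1), 0 of 8 of PRC1.3/5 (PCGF3 and PCGF5), 0 of 9 of PRC1.6 (PCGF6) and 0 of 4 enzymes that remove ubiquitin from H2A were called, and Cbx6 was too low to test. By NPC day 6 against ES day 0, where 29.4% of all genes were called each way, 1 of 9 canonical partners was higher and 3 lower, 2 of 5 of PRC1.1 higher and 3 lower, 3 of 8 of PRC1.3/5 higher and 2 lower, 5 of 9 of PRC1.6 higher and 1 lower, and 3 of 4 deubiquitinases higher and 1 lower. Those past a log2 change of 1 were 3 X-linked genes, Bcorl1 at -1.30 (adjusted p 7.56e-11 by edgeR), Scml2 at -1.26 (adjusted p 1.24e-05) and Bcor at 1.07 (adjusted p 1.03e-07). BCOR and BCORL1 are alternative partners of PCGF1, and SCML2 joins canonical complexes. On day 3 the largest were Bcorl1 (-1.51), Bcor (1.23), Tfdp1 (1.15) and E2f6 (0.80), the last a DNA-binding partner of PCGF6. From day 3 to day 6 they included Scml2 (-0.87), Phc2 (0.45) and Csnk2b (0.29). Between degron and untagged lines they were Scml2 (1.53), Auts2 (0.57), Mga (-0.47) and Skp1a (0.46), with the SPOC mutation Phc1 (-0.38) and Auts2 (-0.34), and in the difference of differentiation between degron and untagged arms Cbx7 (-0.84).

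Genes with the most similar course over the 28 group means (Pearson r of log2 CPM, given as a description) were Cuedc2 and Adprhl2 for Ring1 (0.88 and 0.86), Mybpc3 and Alg14 for Rnf2 (0.61 each), Sh3bp5l and Tlcd1 for Pcgf2 (0.88 and 0.85, both on chromosome 11) and Kif5b and Gm10416 for Bmi1 (0.91 and 0.89). For the variant PCGF genes they were Bax and Emc4 for Pcgf1 (0.77 each), Sec31a and Impad1 for Pcgf3 (0.90 and 0.89), Loxl2 and Cers6 for Pcgf5 (0.93 and 0.90) and 4930447C04Rik and Gga3 for Pcgf6 (0.90 and 0.89). For Rybp they were Gpd2 and Msh3 (0.86 each) and for Yaf2 Atxn1 and Map2k4 (0.92 each). The groups share lines and stages, so the 28 points are not independent. Among the members themselves the highest r was 0.59, for Pcgf5 with Yaf2, and the lowest -0.65, for Pcgf5 with Pcgf6.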

How the data were processed

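Chromatin-associated RNA was sequenced in 58 libraries. As the labels and the paper's methods describe, the authors mapped read pairs to an mm10 genome with strain differences masked (STAR 2.4.2a, after Bowtie2 2.3.2 for ribosomal reads), assigned them to alleles with SNPsplit, and used featureCounts to count them over whole gene models, introns included and by strand. The deposited counts are raw, 1 column for all fragments and 1 for each allele, with replicates not pooled. A deposited table of allelic ratios, a fraction computed by the authors for X-linked genes, was not used here.

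Groups came from the sample labels. The members and gene lists were chosen with earlier results of these data known. Counts were tested in R 4.3.3 with edgeR 4.0.16 (filterByExpr, TMM, quasi-likelihood fit with 1 mean for each of 28 groups over all libraries, Benjamini-Hochberg adjustment over 16227 genes at 0.05). Comparisons are averages of differences between group means. The Dom to Cast ratio was tested in 9483 autosomal genes with a median of at least 50 allelic fragments. That test was edgeR's quasi-likelihood fit on the Dom and Cast counts, with 1 term per library and 1 allele term per group. An alternative was limma 3.58.1 on log2 ratios with 0.5 added to each allele. The replicates are cultures or clones, so p-values measure the spread between these samples. No 2 replicates agreed within counting error. Fits were tested on simulated counts.

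Members are all named, partners where the adjusted p was under 0.05 (for day 6 against day 0 the largest 8 with a log2 change of at least 1, elsewhere the largest 4), and the 2 genes most like each member. A partner that met this rule in 1 comparison is not reported here. Alternatives were DESeq2 1.42.0 as scaling or test, no filter, library sizes without X-linked genes, untreated arms or degron lines alone, each library left out, and a replicate block. The difference of differentiation between degron and untagged arms, its alternatives and its day 3 form were added after seeing the data. Clones pair libraries because a clone is 1 cell line, and deviations from group means correlated by 0.88 to 0.96 for dTAG and ctrl libraries of a day in PCGF35_SPOC and by 0.46 to 0.87 in PCGF35, whose replicates the study grew in parallel. Across days the correlations were 0.13 to 0.95 in PCGF35_SPOC, 0.41 to 0.95 in DelPID_SPOC, -0.05 to 0.88 in PCGF35 and -0.15 to 0.81 in SPOC. Depth was 2.29 M to 30.0 M fragments, of which 44.2% to 49.6% carried an allele.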

Additional observations from a re-analysis of the deposited data

Results flagged for a closer look

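Yaf2, whose protein is the alternative to RYBP in variant PRC1, differed in its change with differentiation between the untreated degron arms and the untagged arms tested. The change from ES day 0 to NPC day 6 was higher by 0.73 on the log2 scale in the untreated degron arms (SE 0.17, adjusted p 0.0274 by edgeR's quasi-likelihood test over all genes). By arm it was 0.32 in PCGF35_ctrl, -0.35 in PCGF35_SPOC_ctrl, -0.60 in DelPID_SPOC and -0.91 in SPOC. Both untagged arms carry the SPOC mutation and PCGF35_ctrl does not, so tag and mutation are mixed in this comparison. It was added after these arms had been seen, its call was lost in 7 of 17 fits that left out 1 library, and between PCGF35_SPOC and SPOC alone the value was 0.55 (adjusted p 0.377). Endoderm and mesoderm markers were higher in the degron libraries of NPC day 6 other than clone F6, and Yaf2 there was 53.6 to 69.2 CPM against 41.0 and 58.4 CPM in F6. The part of these markers was not tested.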

How the results depend on the processing

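Directions held: no call of a member turned its sign under the alternatives run. The counts of members called that moved by over 1.5 times were these. From NPC day 3 to day 6, untreated arms alone called 1 in place of 3. For the SPOC mutation, the replicate block called 3 in place of 1, and leaving out 1 library called 1 to 2, the higher without PCGF35_SPOC_ctrl_NPC_d6 replicate 1. For the difference of differentiation between degron and untagged arms, DESeq2 size factors called 2, the DESeq2 test 3, the replicate block 3 and PCGF35_SPOC against SPOC alone 0, in place of 1, and leaving out 1 library called 0 to 3. Its day 3 form called 1 with the replicate block in place of 0. The block changed no other count of members by that much, and it changed single calls only where its value stands beside them in the text. Over all genes the block raised the calls from 4 to 257 for dTAG in both lines, from 0 to 153 in PCGF35 and 11 in PCGF35_SPOC, from 3462 to 5612 for day 6 against day 3, from 15 to 96 for Xist induction, from 851 to 2640 for the SPOC mutation, and from 409 to 3028 and 6 to 1149 for the added comparison on days 6 and 3. Within line and day the block gave 141, 117 and 3 for dTAG. The DESeq2 test gave 7, 1 and 2 for dTAG, 36 for Xist induction and 994 and 191 for the added comparison, degron lines alone 2 for dTAG in both lines, and DESeq2 size factors, no filter or library sizes without X-linked genes 1 each for dTAG in PCGF35_SPOC. Untreated arms alone gave 1672 for day 6 against day 3 and 8 for Xist induction, and PCGF35_SPOC against SPOC alone 4. The causes were not tested. Ring1 and Pcgf1 were limited by depth, with medians of 47 and 58 fragments per library.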
